A study of Sus scrofa with 36 samples.

Results

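The genes described here are 54 genes of mitosis and of the G2/M step of the cell cycle, chosen by name with earlier results of these data known. A probe was taken as a member's when the array files gave the gene's symbol as the probe's name or held that symbol in brackets in its description. By this rule 42 of the 54 genes had a probe on the array, with 74 probes, and 37 genes with 66 probes were in the value table, which holds 46097 probes in all. CCNA2, CCNF, BUB1B, CENPA, CENPK, CENPN, NDC80, SPC25, MAD2L1, NCAPG, HMMR and FBXO5 had no probe by the rule. FOXM1, TTK, CENPE, NUF2 and ZWINT had probes by the rule only outside the value table. Total RNA of the thyroid gland was measured in 36 castrated male growing pigs, 1 pig per 1-colour Agilent array. There were 6 pigs in each combination of breed, which was Creole (CR), Large White (LW) or their cross (F1), with a labelled temperature of 24 or 30 °C. The labels give 30 °C for the hot groups, whereas the protocol text gives 32 °C for 5 days. The pigs at 24 °C were killed before the warm period and those at 30 °C after it, so temperature cannot be told apart from the day of slaughter and from age, which the labels do not give. The pigs of a breed came from few litters and shared pens, and the tests treat them as independent pigs.

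Cells that divide build up the kinase CDK1 and its partner cyclin B through G2. Active CDK1 drives condensation of the chromosomes, breakdown of the nuclear envelope and assembly of the spindle. The kinases PLK1, Aurora A and Aurora B act beside it, the kinetochore ties each chromosome to the spindle, and the anaphase-promoting complex then marks cyclin B and securin for destruction so that sister chromatids can part. Transcripts of many of these genes rise together late in the cycle, in part under the MuvB, B-MYB and FOXM1 factors, and are low in resting cells. Follicular cells of an adult thyroid divide rarely, and thyrotropin stimulates their growth. The pigs here were still growing.

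Each gene is read through short stretches of its transcript, 60 bases long, and the stretches that carry the main results are printed here 5′ to 3′ in lower case as the array files give them. They are the probes of CDK1, TOP2A, CENPF, CDC20 and PLK1, for which the 30 °C pigs were lower, and the MKI67 probe that lay furthest below 0 of the 3 for that gene. For AURKA, 2 probes that share 27 bases, in capitals, are shown because only the second passed the test.
CDK1: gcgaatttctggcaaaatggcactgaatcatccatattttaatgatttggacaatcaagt
TOP2A: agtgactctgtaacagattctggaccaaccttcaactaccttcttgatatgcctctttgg
CENPF: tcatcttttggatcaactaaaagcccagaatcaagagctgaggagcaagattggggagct
CDC20: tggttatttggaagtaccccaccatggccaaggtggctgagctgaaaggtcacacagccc
PLK1: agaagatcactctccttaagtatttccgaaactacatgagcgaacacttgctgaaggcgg
MKI67: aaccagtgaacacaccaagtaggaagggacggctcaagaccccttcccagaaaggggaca
AURKA, first probe: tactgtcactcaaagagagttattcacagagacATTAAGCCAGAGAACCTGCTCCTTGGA
AURKA, second probe: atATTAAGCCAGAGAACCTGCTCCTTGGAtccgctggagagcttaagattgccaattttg
In the RefSeq annotation of the pig assembly Sscrofa11.1 the 37 measured genes lie on 15 chromosomes, with at most 5 on the same one. CDK1 lies at chr14:64233945-64255290, CCNB1 at chr16:47338239-47348385, TOP2A at chr12:22001300-22028452 and PLK1 at chr3:22537814-22550901. Where in each transcript a probe lies was not analysed here.

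Of the 37 measured genes, 32 were well above background on all 36 arrays. NEK2 was so on 12 arrays, and the fewest for any other member was 32. Each pig was also given a place between the pure breeds from 294 probes that separate them, where CR averages 0 and LW averages 1. CR 30 °C replicate 3 had the highest place of the CR pigs, 0.144, and the next, CR 24 °C replicate 5, lay at 0.097. F1 24 °C replicate 4 lay at 0.143, where the median of its group was 0.532. F1 30 °C replicate 6 lay lower still, at 0.100, where the median of its group was 0.336. Results are given without CR 30 °C replicate 3 and F1 24 °C replicate 4 where they decide a count. F1 30 °C replicate 6 was kept in those counts. Where a gene had several probes, the probe with the highest mean signal stands for it.

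The first comparison asked how these genes differed between pigs after and before the warm days, over the 3 breeds. The 30 °C pigs were lower for 26 of the 37 genes and higher for 0 (adjusted p under 0.05 in limma over all 46097 probes). Over all probes, 0.874% were called lower and 0.302% higher. The median change of the 37 genes was -0.41 on the log2 scale, against 0.01 over all probes, and 36 of the 37 estimates lay below 0, against 44.3% of all probes. For 8 genes the change was -1 or beyond, that is, a signal at 24 °C of at least 2.26 times that at 30 °C. For 19 of the 26 genes, all 18 pigs at 30 °C had less signal than their own breed averaged at 24 °C, which held for 0.384% of all probes. The arrays lay on 5 slides, and in each of the 4 slides that held all 6 groups the median change was between -0.47 and -0.39. In whole glands, fewer dividing cells and less RNA per cell cannot be told apart.

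**Figure D1:**
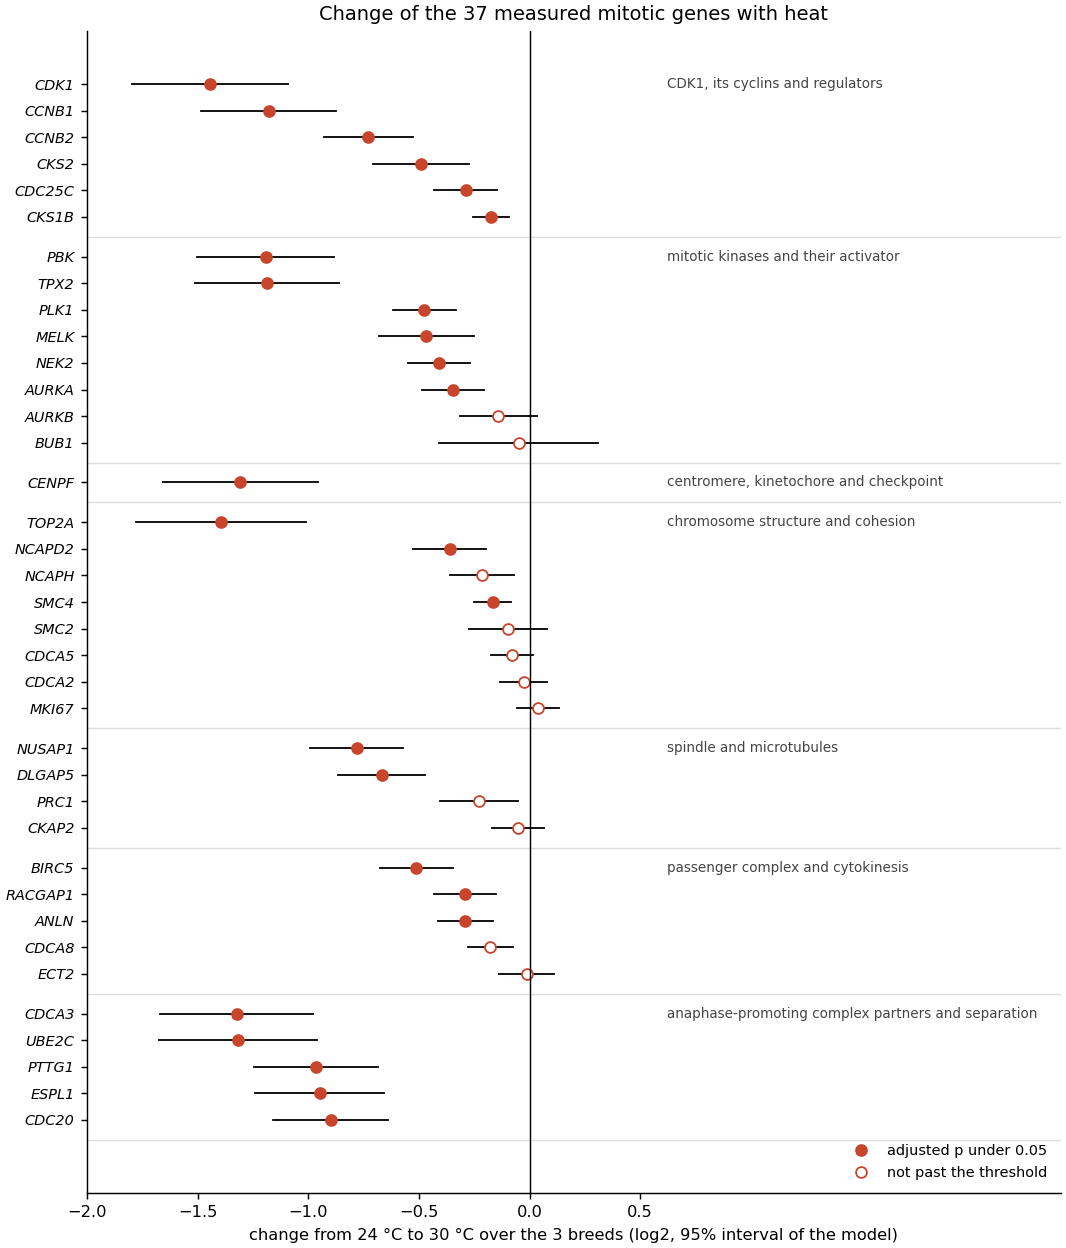
Change of each measured gene from 24 °C to 30 °C over the 3 breeds (log2, points) with the 95% interval of the limma model (lines), grouped by role. Filled points passed the adjusted threshold, and 26 of 37 did, all to the left of 0, from CDK1 at -1.44 to SMC4 at -0.17.

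All 6 measured genes of CDK1 and its partners were lower at 30 °C, with a median change of -0.61. CDK1, the kinase that starts mitosis, had the largest change of the 37 genes. Its log2 intensity was between 7.59 and 10.27 in the 18 pigs at 24 °C, with a median of 9.32, and between 6.90 and 8.44 at 30 °C, with a median of 7.87. The ranges of both temperatures overlapped, and the overlap came from LW, since within CR and within F1 every 30 °C pig lay below every 24 °C pig. The change was -1.44 (SE 0.17, adjusted p 6.72e-06), a 2.72-fold difference, and both probes of the gene passed. CCNB1, cyclin B1, ranged from 7.80 to 10.19 (median 8.98) at 24 °C and from 7.07 to 8.47 (median 7.88) at 30 °C. It changed by -1.18 (SE 0.15, adjusted p 8.43e-06), again with no overlap within CR or F1. CCNB2, cyclin B2, changed by -0.73 (SE 0.10, adjusted p 1.08e-05) and its second probe by -0.29. CKS2 and CKS1B, small proteins that bind CDK1, differed in size. CKS2 changed by -0.49 (SE 0.11, adjusted p 0.00868), and CKS1B by -0.18 (SE 0.04, adjusted p 0.0136). Of the 3 CKS1B probes 2 were called. CDC25C, the phosphatase that removes the inhibitory phosphates of CDK1, changed by -0.29 (SE 0.07, adjusted p 0.0257) on 1 of 2 probes. The calls of CDC25C and CKS1B were lost with the scanner's processed signal, at adjusted p of 0.0525 and 0.156.

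**Figure D2:**
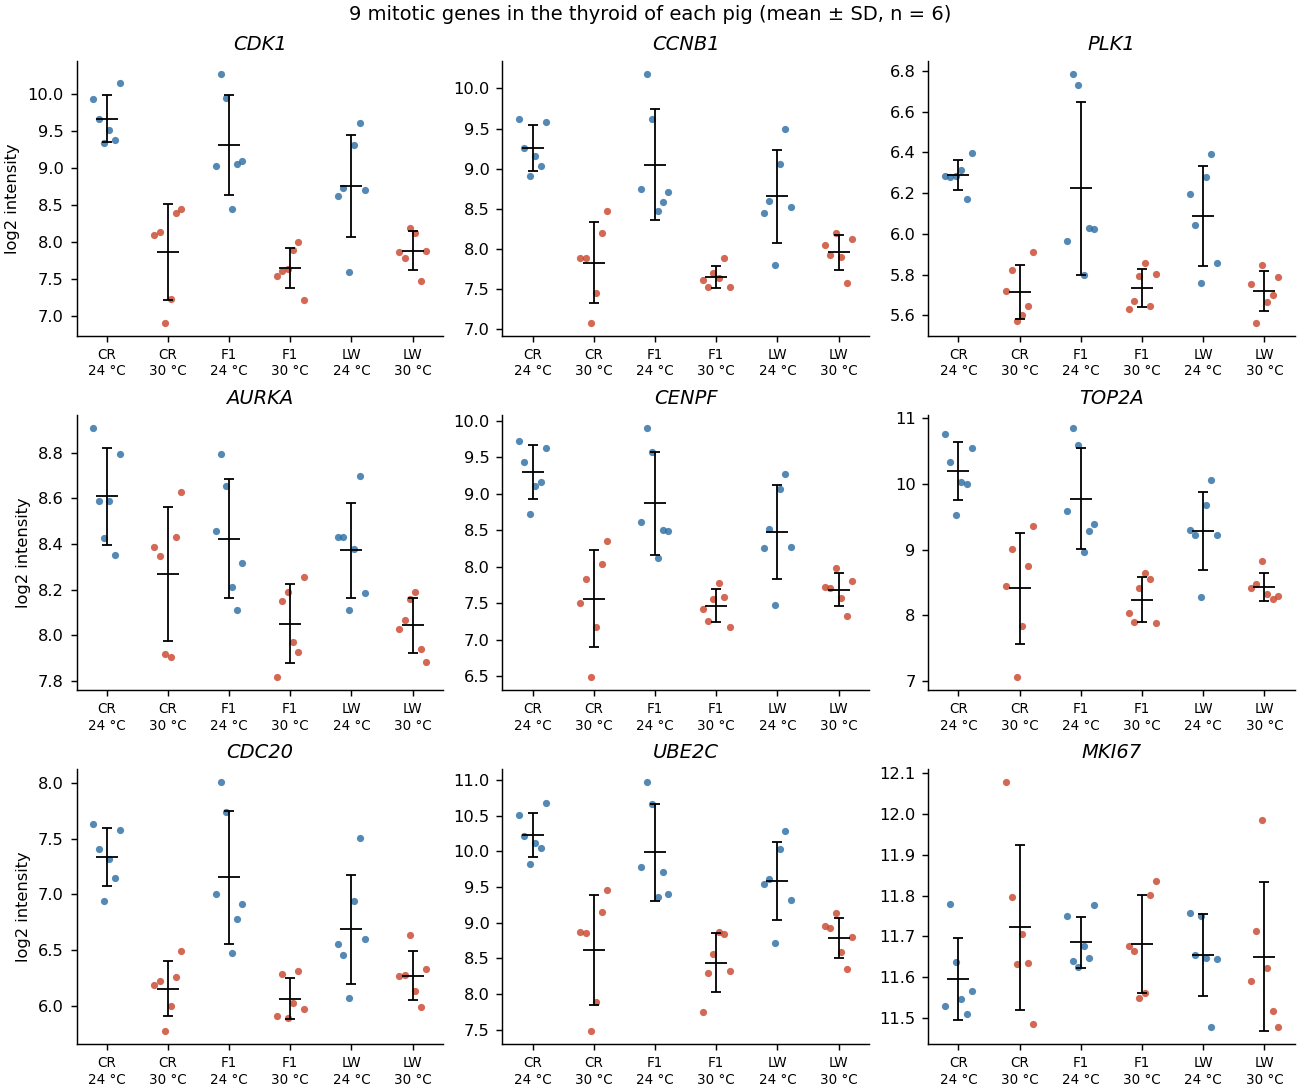
Log2 intensity (vertical axes) of 9 genes in each of the 36 pigs by breed and temperature, with the mean and SD of the 6 pigs of a group in black, blue at 24 °C and red at 30 °C. CDK1 pigs at 30 °C lie between 6.90 and 8.44, below all CR and F1 pigs at 24 °C, whereas MKI67 pigs lie between 11.48 and 12.08 at 30 °C and between 11.48 and 11.78 at 24 °C.

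Of 8 measured mitotic kinases and their activator, 6 were lower. PBK, a kinase active in mitosis, ranged from 8.17 to 10.36 (median 9.40) at 24 °C and from 7.13 to 8.78 (median 8.25) at 30 °C. It changed by -1.19 (SE 0.15, adjusted p 8.43e-06), and its 4 probes were all called. TPX2, which activates Aurora A on the spindle, changed by -1.19 (SE 0.16, adjusted p 1.08e-05). Aurora A itself, AURKA, changed less, by -0.35 (SE 0.07, adjusted p 0.00303). Of its 2 overlapping probes printed above, the first changed by -0.13 (adjusted p 0.386) and the second by -0.23 (adjusted p 0.00258). PLK1, which acts from entry into mitosis to cytokinesis, ranged from 5.76 to 6.79 (median 6.24) at 24 °C and from 5.56 to 5.91 (median 5.71) at 30 °C. The change was -0.48 (SE 0.07, adjusted p 3.74e-05). MELK changed by -0.47 (SE 0.11, adjusted p 0.0130).

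NEK2, a kinase of centrosome separation, changed by -0.41 (SE 0.07, adjusted p 0.000304), but its probe was not well above background on any F1 or LW array at 30 °C. For F1, where 5 of 6 arrays at 24 °C were above it, the signal at 24 °C was at least 1.33-fold higher, set against the higher of the lowest signal above background on an array and the probe's own. AURKB, the kinase of the chromosomal passenger complex, had 3 probes with changes of -0.14, -0.34 and -0.40 and adjusted p of 0.644, 0.437 and 0.532. The representative probe had a 95% interval of -0.32 to 0.03. BUB1, a kinase of the spindle checkpoint, had an estimate of -0.05 (SE 0.18, adjusted p 0.975), with a range of 7.58 to 9.38 at 24 °C and 7.63 to 10.29 at 30 °C.

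Only 1 of 10 centromere, kinetochore and checkpoint genes was measured by the rule. This was CENPF, a large coiled-coil protein of the kinetochore, which ranged from 7.47 to 9.90 (median 8.89) at 24 °C and from 6.48 to 8.34 (median 7.58) at 30 °C. It changed by -1.31 (SE 0.17, adjusted p 8.91e-06), and its 4 probes, all called, lay between -1.31 and -0.62. A further 8 probes carry the symbol of a member only through a gene number or an older symbol, and 7 of them were lower. They include CCNF, cyclin F (-0.80, SE 0.11, adjusted p 9.93e-06), and NUF2 of the outer kinetochore with -0.50 (SE 0.08, adjusted p 7.17e-05) and -0.42 on its 2 probes. CENPA, the histone H3 variant of centromeres, changed by -0.58 (SE 0.08, adjusted p 3.52e-05), with no F1 or LW array at 30 °C well above background. SPC25, also of the outer kinetochore, had -0.16 (SE 0.08, adjusted p 0.519).

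Among 8 genes of chromosome structure and cohesion 3 were lower. TOP2A, the topoisomerase that untangles sister chromatids, ranged from 8.28 to 10.86 (median 9.63) at 24 °C and from 7.06 to 9.37 (median 8.42) at 30 °C. It changed by -1.39 (SE 0.19, adjusted p 1.17e-05), and a probe that names it by an older symbol changed by -1.35. Of the condensin subunits, NCAPD2 changed by -0.36 (SE 0.08, adjusted p 0.0105) and SMC4 by -0.17 (SE 0.04, adjusted p 0.0298). SMC4 was called on 3 of its 6 probes. Its call was lost, with adjusted p of 0.0502 to 0.0544, when CR 24 °C replicate 5 or 6, F1 24 °C replicate 2 or 3, or F1 30 °C replicate 1 was left out. NCAPH and SMC2, further subunits of condensin, had -0.22 (adjusted p 0.189) and -0.10 (adjusted p 0.817). CDCA5, or sororin, which holds cohesin on chromatin, had -0.08 (adjusted p 0.631), and CDCA2, which brings a phosphatase to chromosomes at their exit from mitosis, had -0.03 (adjusted p 0.945).

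MKI67, whose product Ki-67 coats mitotic chromosomes and is the usual stain for dividing cells, was the only member with an estimate above 0. It ranged from 11.48 to 11.78 (median 11.65) at 24 °C and from 11.48 to 12.08 (median 11.65) at 30 °C. The estimate was 0.04 (SE 0.05, adjusted p 0.885), with a 95% interval of -0.05 to 0.13. Its second probe had 0.00 (SE 0.06) and the third, printed above, had -0.12 (SE 0.05, adjusted p 0.324). With the mean of the 3 probes the estimate was -0.03. The probes differed in level, with means of 11.59, 8.67 and 6.17 in CR at 24 °C. Which of them best reads the transcript was not tested.

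Of the 4 measured genes of spindle and microtubules, NUSAP1, which bundles spindle microtubules near chromosomes, changed by -0.78 (SE 0.10, adjusted p 8.91e-06). Its range was 9.42 to 10.99 (median 10.09) at 24 °C and 8.84 to 9.97 (median 9.37) at 30 °C. DLGAP5, which stabilizes the fibres that hold the kinetochores, changed by -0.67 (SE 0.10, adjusted p 2.83e-05). PRC1, which bundles the midzone of the spindle, had -0.23 (SE 0.09, adjusted p 0.302) and passed, with -0.28 and an adjusted p of 0.0404, when LW 30 °C replicate 1 was left out. CKAP2 had -0.05 (SE 0.06, adjusted p 0.868).

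In the passenger complex and cytokinesis 3 of 5 genes were lower. BIRC5, or survivin, the passenger subunit that targets Aurora B to centromeres, ranged from 10.096 to 11.30 (median 10.58) at 24 °C and from 9.79 to 10.61 (median 10.03) at 30 °C. It changed by -0.51 (SE 0.08, adjusted p 0.000121), and all 3 probes were called. RACGAP1, of the central spindle, and ANLN, a scaffold of the contractile ring, both changed by -0.29 (SE 0.07 and 0.06, adjusted p 0.0208 and 0.00647). CDCA8, or borealin, the partner of BIRC5, had -0.18 (SE 0.05, adjusted p 0.0769) and was called with slide as a fixed block (adjusted p 0.0303) and without CR 24 °C replicate 4, F1 24 °C replicate 4 or CR 30 °C replicate 6. ECT2, which activates RhoA for the cleavage furrow, had -0.01 (SE 0.06, adjusted p 0.981).

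All 5 measured partners of the anaphase-promoting complex and genes of chromatid separation were lower, with a median of -0.97. UBE2C, the ubiquitin-conjugating enzyme of the complex, ranged from 8.72 to 10.98 (median 9.93) at 24 °C and from 7.48 to 9.46 (median 8.82) at 30 °C. It changed by -1.32 (SE 0.18, adjusted p 9.93e-06). CDC20, the activator that brings substrates to the complex, ranged from 6.07 to 8.01 (median 6.97) at 24 °C and from 5.77 to 6.63 (median 6.20) at 30 °C. Its 2 probes have the sequence printed above in common and changed by -0.90 and -1.0, so a difference of 0.10 arose between spots of 1 sequence. CDCA3, a trigger of entry into mitosis, changed by -1.32 (SE 0.17, adjusted p 8.55e-06). PTTG1, or securin, and ESPL1, or separase, the protease that securin holds in check, changed by -0.97 (SE 0.14, adjusted p 2.40e-05) and -0.95 (SE 0.14, adjusted p 5.74e-05).

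Of the 16 genes with more than 1 probe, 14 had all probes below 0, 10 had all probes called, 4 some and 2, AURKB and MKI67, none. Identical sequences stood on 2 probes for 3 genes, CDC20, CDCA3 and MELK, and their changes differed by 0.10, 0.10 and 0.00.

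Within the breeds, 17 of the 37 genes were lower at 30 °C in CR and 13 in F1, and limma called 0 in LW. Over all probes, 0.356% were called lower in CR, 0.276% in F1 and 0% in LW. In LW, 18 members had an unadjusted p under 0.05, all lower, against 2.02% of all probes. The median change was -0.54 in CR, -0.49 in F1 and -0.25 in LW, and over all probes it was 0.01 in each. The 13 genes called in F1 were all called in CR. Both breeds used their own pigs, but the model shares its estimate of a probe's spread over all groups, so the calls are not independent. BIRC5, DLGAP5, ESPL1 and PLK1 were called in CR and had -0.53, -0.68, -0.94 and -0.49 in F1, with adjusted p between 0.0598 and 0.104. The second probe of DLGAP5 was called in F1 (-0.89, adjusted p 0.0398), so 14 members were called there by any of their probes and 17 in CR. The F1 count was 8 without F1 24 °C replicate 2 or without replicate 3 and 17 without replicate 4. It was also 17 without both F1 24 °C replicate 4 and CR 30 °C replicate 3.

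CDK1 shows the pattern pig by pig. In CR it ranged from 9.34 to 10.14 (median 9.58) at 24 °C and from 6.90 to 8.44 (median 8.11) at 30 °C, a change of -1.80 (SE 0.28, adjusted p 0.00124). In F1 it ranged from 8.45 to 10.27 (median 9.07) and from 7.21 to 7.99 (median 7.62), a change of -1.66 (SE 0.28, adjusted p 0.00403). In LW it ranged from 7.59 to 9.6 (median 8.71) and from 7.46 to 8.18 (median 7.87), a change of -0.87 (SE 0.28, unadjusted p 0.00404, adjusted p 0.808). The LW groups overlapped because 1 LW pig at 24 °C lay at 7.59. TOP2A changed by -1.79 in CR, -1.54 in F1 and -0.86 in LW, CENPF by -1.73, -1.40 and -0.79, and UBE2C by -1.61, -1.54 and -0.80. No overlap between temperatures, with 30 °C lower, was seen for the representative probes of 17 members in CR, 15 in F1 and 0 in LW, against 0.46%, 0.469% and 0.0911% of all probes. In LW a further probe each of CDCA3 and CENPF did not overlap, with 30 °C lower. Their lowest values at 24 °C were 7.41 and 5.672, and their highest at 30 °C were 7.38 and 5.669.

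**Figure D3:**
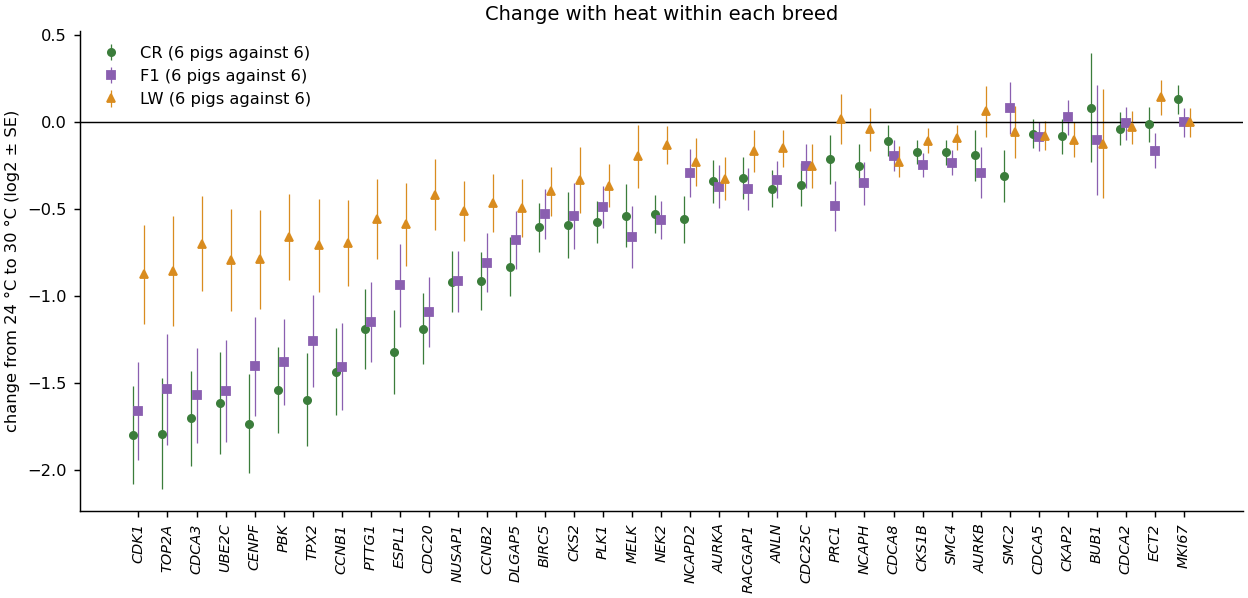
Change from 24 °C to 30 °C within each breed (log2, vertical axis, ± SE of the limma model) for the 37 genes, ordered by the change over the breeds. The LW triangles lie nearer to 0 than the CR circles and F1 squares for the genes on the left, such as CDK1 at -0.87 against -1.80 and -1.66, and no difference between breeds passed its test.

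The difference in change between breeds was tested directly. Limma called 0 of the 37 genes, and 0 of all probes, for an interaction of breed and temperature. At an unadjusted p under 0.05 it was 4 members, against 4.66% of all probes. For the change in CR minus that in LW, 10 members had an unadjusted p under 0.05, all below 0, against 1.56% of all probes, with 0 called after adjustment. The CDK1 change was more negative in CR than in LW by -0.92 (SE 0.40, adjusted p 1), and that of CDCA3 by -1.0 (SE 0.39, adjusted p 1). The median of this difference over the members was -0.25, against 0.00 over all probes.

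The breeds themselves were compared to ask whether the genes differed by origin. Over both temperatures 1 member, NCAPH, differed between LW and CR, a share below the 12.9% of all probes that were called. At an unadjusted p under 0.05 there were 12, of which 11 were lower in LW, against 26.2% and 12.2% of all probes. Estimates of LW minus CR lay below 0 for 31 of the 37 genes, against 50.3% of all probes, with a median of -0.18. NCAPH was higher in LW by 0.30 (adjusted p 0.0210). It ranged from 7.91 to 8.45 at 24 °C and from 8.01 to 8.46 at 30 °C in LW, and from 7.74 to 8.46 and from 7.45 to 8.05 in CR. A second probe of CKS1B was also called (-0.14, adjusted p 0.0475). The call of NCAPH held in all 48 other settings, and 2 to 5 members were called in some of them, most often with MELK added. The count was 5 without CR 30 °C replicate 3 and 4 without CR 30 °C replicate 4 or LW 24 °C replicate 5. With limma, 0 members were called for F1 against CR (3.38% of all probes), for F1 against LW (2%) or for F1 against the mean of both breeds (0.449%), with 4, 2 and 1 at an unadjusted p under 0.05, against 17.2%, 13.4% and 10.4% of all probes.

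At 24 °C, 30 of the 37 genes had estimates below 0 for LW minus CR, with a median of -0.26, and at 30 °C 16 did, with a median of 0.02. Of all probes, 50% and 50.1% lay below 0. At 24 °C limma called 1 member, CDCA3, against 3.43% of all probes, and 19 had an unadjusted p under 0.05, against 16.9%. CDCA3 was lower in LW by -1.03 (SE 0.27, adjusted p 0.0276). This call was lost without CR 24 °C replicate 1, 2 or 6 or without LW 24 °C replicate 1, 2, 3 or 6, and without LW 24 °C replicate 5 the count was 7, with CDK1, CCNB2, PBK, TPX2, NUSAP1 and CDC20 added. CDK1 had -0.90 (SE 0.28, adjusted p 0.0687) at 24 °C and 0.02 (adjusted p 0.987) at 30 °C. TPX2 had -0.86 (SE 0.27, adjusted p 0.0634) and 0.02, and CDC20 had -0.65 (SE 0.20, adjusted p 0.0680) and 0.12. The second CDC20 probe, of the same sequence, was called at 24 °C (-0.81, adjusted p 0.0200), as was 1 further CENPF probe (-0.63, adjusted p 0.0170), so 3 members were called there by any of their probes. With slide as a fixed block CDK1, CCNB2, TPX2 and CDC20 were also called at 24 °C, and with slide as a random block TPX2 and CDC20 were. At 30 °C limma called 0 members, against 3.69% of all probes, and 2 had an unadjusted p under 0.05, against 17%. Comparisons within 24 °C and those within a breed share pigs.

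The mean of the 37 genes in a pig gives the same values in 1 number. In CR it lay between 8.35 and 8.79 at 24 °C (8.61 ± 0.17, SD, n = 6) and between 7.53 and 8.17 at 30 °C (7.91 ± 0.25). In F1 it lay between 8.16 and 9.01 (8.48 ± 0.34) and between 7.71 and 7.92 (7.84 ± 0.08). In LW it lay between 7.89 and 8.64 (8.26 ± 0.26) and between 7.80 and 8.01 (7.93 ± 0.07). In CR and F1 no pig at 30 °C reached the lowest pig at 24 °C, and in LW the lowest pig at 24 °C lay among the pigs at 30 °C. The means of the 3 breeds spanned 8.26 to 8.61 at 24 °C and 7.84 to 7.93 at 30 °C. The 2 lowest pigs of all, at 7.53 and 7.67, were CR 30 °C replicates 3 and 4.

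**Figure D4:**
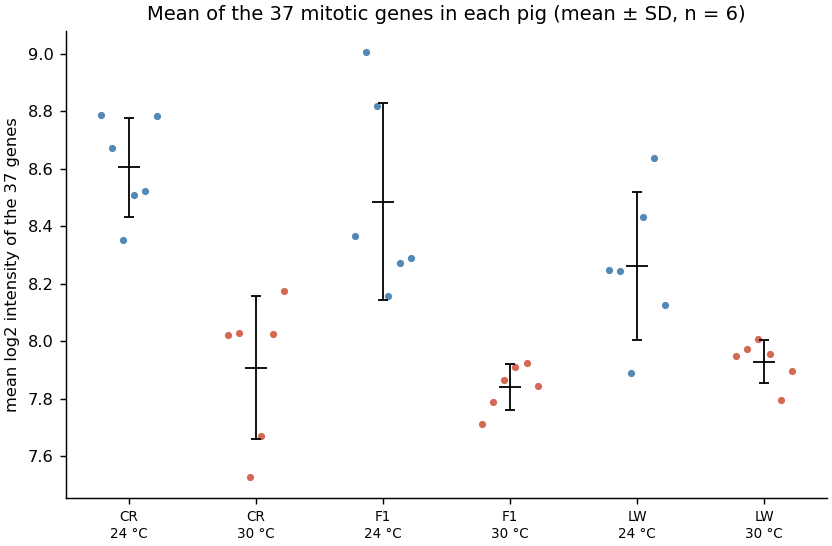
Mean log2 intensity of the 37 genes (vertical axis) in each pig by breed and temperature, with the mean and SD of 6 pigs in black. Pigs at 24 °C spread from 7.89 to 9.01 and pigs at 30 °C from 7.53 to 8.17, with the narrowest groups in F1 and LW at 30 °C (SD 0.08 and 0.07).

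The spread between pigs was compared as well. In F1 27 of the 37 genes had a smaller SD at 30 °C than at 24 °C, and in LW 27, against 40.1% and 40.3% of all probes. The median SD of the members was 0.35 at 24 °C and 0.19 at 30 °C in F1, and 0.27 and 0.18 in LW, while that of all probes was 0.15 and 0.17 in F1 and 0.16 and 0.18 in LW. In CR it was 10 of the 37, against 42.6% of all probes, and the median SD was 0.22 at 24 °C and 0.29 at 30 °C. Many of these genes vary together from pig to pig, so the counts do not weigh separate spreads. At 24 °C in F1, the mean of the genes was 9.01 and 8.82 in replicates 2 and 3 and 8.16 to 8.37 otherwise. At 30 °C in CR, it was 7.53 and 7.67 in replicates 3 and 4 and 8.02 to 8.17 otherwise. No test was run on these spreads.

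Variation within groups was described next, over 36 pigs after each group's mean was subtracted, where all genes of a pig share its array. Of the 37 genes, 17 correlated at 0.8 or more with the mean of the other members, led by PTTG1 (0.96) and CCNB1 (0.96). All 17 were lower at 30 °C. The median correlation was 0.85 between pairs of these 17 genes and 0.35 over all 666 pairs. BIRC5, lower at 30 °C, correlated at 0.49. Below 0.2 were CDCA5 (0.02), MKI67 (-0.13), ECT2 (-0.18) and CDCA2 (-0.19), none of them called for heat. Members that varied together within groups were thus, in the main, those with larger changes (Pearson's r across the 37 genes, which are not independent, -0.82).

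Among 11555 other named genes, the 10 most like the mean of the members in these within-group differences were KIF23 (0.96), ERN2 (0.95), SPAG5 (0.95), KIF4A (0.95), SGO1 (0.94), KIFC1 (0.92), SKA1 (0.90), CKAP2L (0.89), RRM2 (0.89) and the gene that the files name KIAA0101 (0.89). The median over those genes was 0.01. KIF23, KIF4A and KIFC1 are motor proteins of mitosis, SGO1 guards cohesin at centromeres, and RRM2 is a subunit of ribonucleotide reductase. All 10 were lower at 30 °C, against 0.874% of all probes. RRM2 changed by -1.26 (SE 0.16, adjusted p 8.55e-06) and the KIAA0101 probe by -1.13 (SE 0.14, adjusted p 8.43e-06). ERN2, a sensor of unfolded proteins in the endoplasmic reticulum, stands apart from the others in its known role. It rests on 1 probe, which changed by -0.68 (SE 0.11, adjusted p 0.000193). Which transcript that probe reads was not tested.

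Other genes of cell division were taken from 7 lists, with 73 genes measured, of which 16 were lower and 0 higher at 30 °C. The shares of all probes called lower and higher were 0.874% and 0.302%. Of 6 mitotic kinesins 4 were lower, KIF23 (-1.33, SE 0.16), KIFC1 (-1.02, SE 0.14), KIF4A (-0.93, SE 0.12) and KIF15 (-0.64, SE 0.11), with a list median of -0.79. KIF11, the motor that pushes the spindle poles apart, had 0.09 (adjusted p 0.815). Of 18 further kinetochore and centromere genes 6 were lower, led by SGO1 (-0.93, SE 0.12), SKA1 (-0.86, SE 0.12) and SPC24 (-0.64, SE 0.10) and followed by CENPI (-0.25, SE 0.06), with a median of -0.09. Of 11 further spindle and cytokinesis genes 6 were lower, led by SPAG5 (-1.10, SE 0.16), CKAP2L (-0.84, SE 0.14), ARHGAP11A (-0.65, SE 0.09) and TACC3 (-0.59, SE 0.11), with a median of -0.20.

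In the other 4 lists limma called 0 genes. Over all probes 9.73% had an unadjusted p under 0.05 for heat. They were 7 genes of cohesin and condensin (median 0.00, 0 at an unadjusted p under 0.05), 12 genes of the anaphase-promoting complex, which are subunits except for its activator FZR1 (0.04, 2), 6 regulators of CDK1 phosphorylation and of its reversal (-0.04, 1) and 13 factors of the DREAM, MuvB and NF-Y complexes (0.02, 2). The third list holds WEE1, which inhibits CDK1, as well as MASTL, ENSA and ARPP19, which hold back the phosphatase that reverses its work, so its genes act in both directions. The 12 genes of the anaphase-promoting complex lay between -0.04 and 0.11. Among its activators, FZR1 had 0.05 (adjusted p 0.892), beside -0.90 for CDC20, and UBE2C, its enzyme partner, had -1.32.

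**Figure D5:**
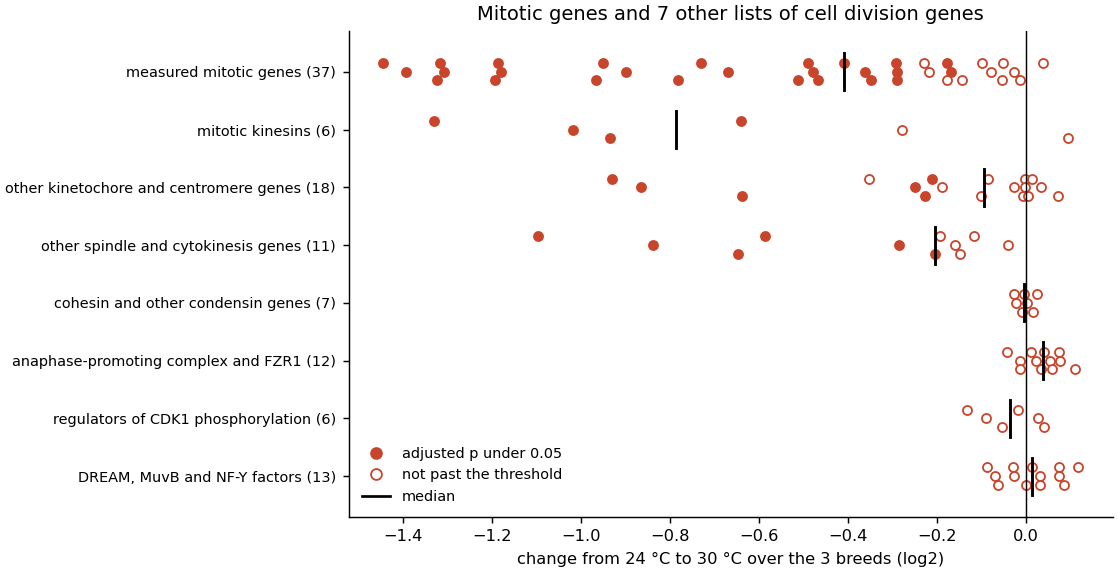
Change from 24 °C to 30 °C over the breeds (log2, horizontal axis) of each measured gene in the mitotic set and in 7 other lists, with the number of genes in brackets, called genes filled and the median as a bar. Called genes lie left of 0 in the upper 4 rows, and the lower 4 rows, from cohesin to the DREAM factors, hold none and stay between -0.13 and 0.12.

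Markers of the cell types that a thyroid sample can hold were read beside these results. All 10 measured follicular cell markers, thyroglobulin among them, were well above background on all 36 arrays. Their changes lay between -0.06 and 0.20, with 0 called and 0 at an unadjusted p under 0.05, and their summed linear signal was 511422 to 803176 at 24 °C and 434971 to 890274 at 30 °C. Of the other 10 lists, only the erythroid one held a called gene, HBB, a globin, which changed by -1.0 (SE 0.19, adjusted p 0.00145), with 1 of 8 called and a summed signal of 5442 to 8378 at 24 °C and 4584 to 7574 at 30 °C. The medians were -0.32 for 8 adipocyte, -0.26 for 8 fibroblast and -0.14 for 10 myeloid markers, with 0 called. At an unadjusted p under 0.05, 4, 2 and 3 of these markers were lower, against 4.69% of all probes. For the 8 erythroid markers the median was -0.13, and 3 of them, HBB included, were lower at an unadjusted p under 0.05. Summed signals at 24 °C and 30 °C were 21586 to 53451 and 19591 to 43892 for adipocyte markers, 54468 to 171182 and 52581 to 193999 for fibroblast markers, and 7106 to 11214 and 6631 to 12379 for myeloid markers. The medians of 8 endothelial, 6 C cell, 2 parathyroid and 7 skeletal muscle markers were 0.05, 0.00, 0.11 and -0.07. Each of the 86 markers was well above background on at least 1 array. For 13 markers of thymocytes and T cells the median was -0.01 and the summed signal 7880 to 12384 and 8588 to 12558. Of these 13, 10 were well above background on all 36 arrays, while CD4, DNTT and PTCRA were so on 17, 18 and 28. For 6 markers of B and plasma cells the median was 0.01 and the sum 871 to 1232 and 838 to 1138. Within groups, the mean of the mitotic genes correlated at 0.40 with follicular, 0.39 with B cell, 0.37 with myeloid, 0.26 with muscle, 0.11 with thymocyte, 0.08 with erythroid, 0.05 with fibroblast, 0.01 with C cell, -0.06 with endothelial, -0.11 with adipocyte and -0.22 with parathyroid markers, over 36 pigs. The part of any of these cells in the changes was not tested.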

How the data were processed

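Cy3-labelled RNA of 36 pigs was hybridized to 1-colour arrays. Per the file headers, the scanner files (Agilent Feature Extraction 10.10.1.1) hold pixel intensity, background and a processed intensity. The authors quantile normalized the median intensity, without background subtraction, and deposited log2 values of 46097 probes, which were used here as deposited. Values remade from the scanner files differed by a median of 0.00558. Arrays have no depth, so their number limits the precision. Between 72.8% and 80.3% of spots were well above background.

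Limma 3.58.1 in R 4.3.3 was fitted to all 36 arrays, with breed and temperature as terms, or with the 6 groups for changes within breeds and interactions. Benjamini-Hochberg adjustment ran over all probes. On simulated data for the comparison of temperatures, with 200 of 46097 probes changed, 98% of changes of 1 and 89% of changes of 0.5 were called. There 7 unchanged probes were also called. The simulated noise was independent between pigs and between probes, whereas the real pigs shared litters and pens, so these shares may not hold for them. The members, their roles, the lists and the rule for named genes (all members, up to 4 called genes per list, and the 10 genes most correlated with the mean of the members) were chosen with earlier results of these data known. KIF11, FZR1, WEE1, MASTL, ENSA, ARPP19, thyroglobulin and HBB were named after their values were seen. The alternatives were other scalings, filters, slide and position blocks, array weights and leaving out pigs. Pen, sire, dam and slaughter day are terms of the study's model that the labels do not give, and were not used.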

Additional observations from a re-analysis of the deposited data

Results flagged for a closer look

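Dixon's test at its 95% critical value was applied to the 6 pigs of every group, for each of the 37 genes and for their mean. It picked out a lone high or low pig in 11 of 228 sets of 6 values, or 4.82%, where chance gives about 1 in 20, and 9 pigs were involved. The gap ratio is the distance of that pig to its nearest neighbour divided by the range of the group. At 24 °C, BIRC5 was at 11.30 in F1 replicate 2, against a mean of 10.63 in the others (gap ratio 0.826), and ANLN at 5.69 in CR replicate 3, against 6.28 (0.819). At 30 °C, ANLN was higher than in the others in F1 replicate 2 (0.710) and LW replicate 1 (0.678), and PRC1 in CR replicate 2, at 6.38 against 5.64 (0.680), and LW replicate 1, at 6.55 against 5.66 (0.689). MELK was lower in LW replicate 1 (0.689), at 6.85 against 7.25, and NCAPD2 in LW replicate 6 (0.707). TPX2 was higher in F1 replicate 5 (0.716), DLGAP5 in F1 replicate 4 (0.796) and CKAP2 in LW replicate 5 (0.679).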

How the results depend on the processing

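The members called for heat over the breeds numbered 23 to 27 in the 13 alternatives and 25 to 27 when each of the 36 pigs was left out. The count of 23 came with probes above background on all arrays, which removed CCNB2, NEK2 and PLK1. The 26 called genes were below 0 in each alternative that held them. Of these, 20 were called in all 13 and those 3 in the other 12, while CDC25C and CKS1B were lost with the processed signal and SMC4 with the mean of its probes. Of the 26, all but SMC4 were called whichever pig was left out. Without 1 pig the count was 14 to 18 within CR, 8 to 17 within F1, 0 within LW, 0 for the interaction, 1 to 5 for LW against CR, 0 to 7 for LW against CR at 24 °C and 0 for F1 against the mean of both breeds. It was 0 to 1 for F1 against CR, F1 against LW and LW against CR at 30 °C. For LW against CR the count was 2 with the processed signal, with normexp, with probes above background on all arrays, with slide as a fixed block and with array weights, and 3 with slide as a random block. For LW against CR at 24 °C it was 0 with the processed signal, 5 and 3 with slide as a fixed and a random block, 2 with array weights and 3 with the mean of all probes. Without CR 30 °C replicate 3 and F1 24 °C replicate 4, chosen after seeing the data, these counts were 5 and 3. The heat counts were then 26 over the breeds, 16 in CR and 17 in F1. Estimates near 0 changed sign for BUB1 (0.010 without those 2 pigs, and -0.13 to 0.017 when single pigs were left out), ECT2 (-0.031 to 0.010 when single pigs were left out) and MKI67 (-0.028 with the mean of its probes). The cause of these moves was not tested. Promoter motifs were not analysed here, as no promoter sequence was at hand. No paired analysis was possible because the labels number no replicates, and numbers follow sample order.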
